A study of Mus musculus with 32 samples.

Results

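The comparison described here set the effect of the acetyltransferase inhibitor A-485 on mouse late 2-cell embryos against the effect of the histone deacetylase inhibitor trichostatin A (TSA) at the same stage. It used the 8 late 2-cell RNA libraries out of the 32 samples of the series, chosen by stage and treatment from the labels, in 4 groups of 2. A-485 blocks the catalytic site of CBP and p300, and was given at 10 µM from 4 to 20 h post insemination (hpi), then removed by washing before the embryos were collected at the late 2-cell stage. TSA was given at 50 nM from 8 hpi to 28 hpi, and the embryos were collected at its end. Each inhibitor had its own pair of DMSO libraries, called the A-485 controls and the TSA controls below. All embryos came from in vitro fertilisation of B6D2F1/J eggs by B6D2F1/J sperm, with parents of 6 to 8 weeks, and were kept in KSOM medium. No allele was altered in any group. The labels do not say whether the 2 libraries of a group came from separate cultures, so every p-value measures the spread between these libraries, which may be technical. The inhibitor's target, its window, the wash and the experiment it belonged to changed together and cannot be told apart.

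CBP and p300 transfer acetyl groups to histones, including lysine 27 of histone H3 at active promoters and enhancers, and histone deacetylases remove them. Mouse embryos begin transcription in a minor wave that spans the late 1-cell and early 2-cell stages and a major wave at the late 2-cell stage, together called zygotic genome activation (ZGA). Genes of the first wave include multicopy families of the 2-cell embryo such as Zscan4, Usp17-like and Tdpoz, while ribosome and RNA-processing genes belong largely to the second.

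Each library held between 13206163 and 26531532 expected counts. The 12 embryo markers (among them maternal and 2-cell genes) were each at 1 FPKM (fragments scaled to effective gene length and library size) or more in every library. Mitochondrially encoded protein-coding genes took 5.35% and 5.43% of the counts with A-485 and 3.66% and 3.72% with TSA, against 2.35% to 2.71% in the 4 control libraries. The 20 most abundant genes took 32.1% and 32.6% of the counts with A-485, 25.7% and 27% with TSA, and between 19% and 20.8% in the controls. Scaling is relative in such bulk libraries, so less RNA of a gene per embryo and more RNA of other genes cannot be told apart.

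Of 26554 genes with at least 10 counts over the 8 libraries, A-485 lowered 4345 (16.4% of those tested) and raised 2525 (9.51%). TSA lowered 3003 (11.3%) and raised 2722 (10.3%). A call needed an adjusted p under 0.05 (quasi-likelihood F test of edgeR), a change of 2-fold or more, and 1 FPKM or more as the mean of the treated or the control libraries. The difference of the effects, A-485 less TSA, passed the same thresholds below 0 in 2868 genes (10.8%) and above 0 in 718 (2.7%), and 7492 genes had an unadjusted p under 0.05. Hence 80.0% of the called differences lay on the side where A-485 was the more negative. That share was 72.4% with DESeq2 and 94.1% when libraries were scaled to the mitochondrially encoded protein-coding genes, which moved the median A-485 effect of all genes by -0.88 on the log2 scale. The control pairs were less far apart: between them 229 genes (0.862%) passed, 205 lower and 24 higher in the A-485 controls than in the TSA controls.

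Both effects were called in 3569 genes, and in 3313 of them they had the same sign. A-485 lowered and TSA raised 247 genes (0.93% of those tested), and A-485 raised and TSA lowered 9 (0.0339%). A response to only 1 of the inhibitors was taken as a called effect of that inhibitor, a called difference of the effects, and an effect of the other that was not called and was under 0.5 in size on the log2 scale. By that rule, A-485 alone lowered 472 genes (1.78%) and raised 174 (0.655%), and TSA alone lowered 75 (0.282%) and raised 303 (1.14%). Both inhibitors lowered 2458 genes (9.26%) and raised 855 (3.22%). The effects that placed genes in these classes are given below as a description, and the counts carry no further test.

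**Figure D1:**
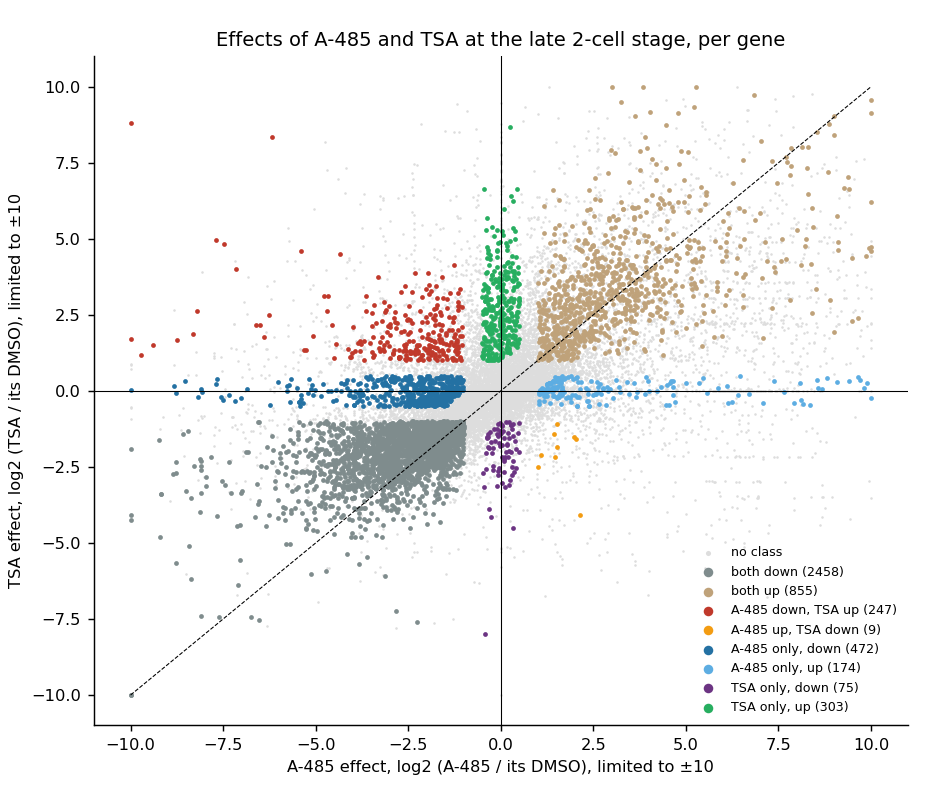
Each point is 1 of the 18257 genes tested at the late 2-cell stage with a mean of at least 1 FPKM in a group. The A-485 effect is on the horizontal axis and the TSA effect on the vertical axis. Both are log2 of treated over its own DMSO, limited to ±10. Colours mark the classes; the 247 genes lowered by A-485 and raised by TSA fill the upper left, and the 9 with the reverse pattern lie at the lower right.

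The 247 genes with opposite responses had a median A-485 effect of -2.21 and a median TSA effect of 1.65 on the log2 scale. Members of the Zscan4, Tdpoz and Tcstv families, other 2-cell genes, the inducible Hsp70 genes Hspa1a and Hspa1b, and the stress genes Cdkn1a and Ddit3 were among them. Of the 247, 184 (74.5%) were protein-coding, and 17.0% were pseudogenes against 10.8% of all genes tested and 9.31% of those of at least 1 FPKM. Their median FPKM per library was 6.66 and 6.93 in the A-485 controls, 1.70 and 1.75 with A-485, 4.86 and 5.59 in the TSA controls, and 21.3 and 21.7 with TSA. On log2(FPKM + 1) of the same 8 libraries, all 247 had an interaction of the same sign and at least 1 in size. As it was -2.10 or below in every member on counts, this is a description and not a further test. Just inside the limit for the TSA rise was H2-T22, a histocompatibility gene, at 1.00 and just outside it Vasn, a TGF-beta binding protein, which missed 1 in the third decimal.

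The 250 bases before the start sites of 4 genes are shown as examples that hold the CCAAT letters counted below. Zscan4c, Inka1 and Hspa1a responded in opposite directions, and Usp17lb to A-485 alone. The sequences were read 5′ to 3′ on the gene's strand from GRCm38. They lie at chr7:11005495-11005744 (plus strand), chr9:107985880-107986129 (minus), chr17:34972157-34972406 (minus) and chr7:104842604-104842853 (minus), each directly upstream of the annotated gene. Capitals mark the CCAAT letters or their reverse complement ATTGG.
Zscan4c: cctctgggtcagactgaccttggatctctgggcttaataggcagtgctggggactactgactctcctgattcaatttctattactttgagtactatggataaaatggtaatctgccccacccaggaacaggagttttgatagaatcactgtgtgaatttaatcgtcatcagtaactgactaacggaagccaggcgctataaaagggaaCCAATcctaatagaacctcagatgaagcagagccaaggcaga
Inka1: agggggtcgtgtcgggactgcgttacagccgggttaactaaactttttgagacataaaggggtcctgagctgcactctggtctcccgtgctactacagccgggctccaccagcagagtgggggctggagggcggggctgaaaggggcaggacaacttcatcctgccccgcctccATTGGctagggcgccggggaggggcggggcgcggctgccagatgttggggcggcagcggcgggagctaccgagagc
Hspa1a: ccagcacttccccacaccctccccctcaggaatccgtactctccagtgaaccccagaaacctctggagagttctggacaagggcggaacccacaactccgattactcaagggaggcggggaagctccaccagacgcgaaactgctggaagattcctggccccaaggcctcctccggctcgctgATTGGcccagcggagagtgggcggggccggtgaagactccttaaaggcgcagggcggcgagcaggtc
Usp17lb: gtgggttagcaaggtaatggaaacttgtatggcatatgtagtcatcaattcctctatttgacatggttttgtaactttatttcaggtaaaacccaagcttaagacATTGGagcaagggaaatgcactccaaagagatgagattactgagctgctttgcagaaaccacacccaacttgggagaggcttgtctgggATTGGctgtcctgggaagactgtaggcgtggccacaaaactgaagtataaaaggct
The Usp17lb stretch held 2 matches and the others 1 each, while those of Lmx1b, Tmem92, Pramef6 and Zfp352, also of the opposite class, and of Il6ra and Ephb3, lowered by A-485 alone, held 0. A match is a run of letters, and no binding was measured.

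Zscan4 genes encode SCAN-domain zinc finger proteins of the 2-cell stage that act on telomeres. All 9 measured Zscan4 genes fell with A-485, 7 rose with TSA, and all 9 differences of the effects were called below 0. The shares over all genes tested were 16.4%, 10.3% and 10.8% in that order. Scaled counts (CPM after TMM scaling) of Zscan4c were 35.8 and 34 in the A-485 controls, 9.52 and 10.8 with A-485, 19.2 and 28.2 in the TSA controls and 75.7 and 69.2 with TSA. The A-485 libraries thus lay below and the TSA libraries above their own controls, with no overlap in either comparison. The A-485 effect on Zscan4c was -1.78 ± 0.20 (SE, adjusted p = 9.12e-07) on the log2 scale, the TSA effect 1.61 ± 0.19 (SE, adjusted p = 2.24e-06) and their difference -3.39 ± 0.28 (SE, adjusted p = 8.22e-08). Zscan4f, another copy with a full reading frame, was at 76.8 and 78.4 in the A-485 controls, 11.8 and 21.3 with A-485, 55.4 and 61.3 in the TSA controls and 158 and 120.2 with TSA. Zscan4e and the pseudogene Zscan4-ps2 had the same order of groups, with differences of -4.50 and -4.11. Zscan4 copies are nearly alike in sequence, and how the counting divided reads between them is uncertain.

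Zfp352, a zinc finger gene of the 2-cell stage, had scaled counts of 138 and 115 in the A-485 controls, 29.9 and 20.8 with A-485, 81.8 and 106 in the TSA controls and 219 and 214 with TSA. The difference of the effects was -3.53 ± 0.23 (SE, adjusted p = 5.83e-09). Tmem92, which encodes a transmembrane protein, was at 93.5 and 76.7 in the A-485 controls, 6.14 and 6.06 with A-485, 52.1 and 66.7 in the TSA controls and 187 and 182 with TSA. It had a larger fall with A-485, -3.80 ± 0.17 (SE, adjusted p = 3.57e-12), and a TSA rise of 1.63 ± 0.14 (SE, adjusted p = 5.73e-08). Pramef6, of the leucine-rich PRAME family, was at 22.7 and 28.4 in the A-485 controls, 1.1 and 1.22 with A-485, 17.4 and 16.2 in the TSA controls and 47.3 and 50.9 with TSA, and its difference was -5.99 ± 0.32 (SE, adjusted p = 7.61e-10). These 3 genes were named from lists by the size of their difference. In each the lowest control library was above the highest A-485 library and the highest control library below the lowest TSA library. Of 12 Pramel and Pramef genes tested, 8 fell with A-485 while TSA lowered 4 and raised 1, so Pramef6 was not typical of its family. Over all genes tested these shares were 16.4%, 11.3% and 10.3% in that order.

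A few stress-response genes had opposite responses: 2 of 54 chaperones, 1 of 24 p53-response genes and 1 of 22 integrated stress response genes. Of all genes tested 0.93% fell with A-485 and rose with TSA. Hspa1a encodes the inducible heat shock protein Hsp70, which is transcribed early in mouse embryos. Its scaled counts were 34.2 and 38.5 in the A-485 controls, 9.04 and 13.6 with A-485, 26.4 and 29.6 in the TSA controls and 103 and 81.2 with TSA. Its neighbour Hspa1b, which encodes the same protein, was at 46.9 and 46 in the A-485 controls, 14.6 and 9.86 with A-485, 26.5 and 34.1 in the TSA controls and 74.8 and 79.1 with TSA, and their differences were -3.40 ± 0.28 (SE, adjusted p = 8.04e-08) and -3.27 ± 0.27 (SE, adjusted p = 9.45e-08). Reads could have been divided between these near-identical genes. They were the only 2 of 54 chaperone genes tested with opposite responses, while A-485 lowered 31 and TSA lowered 20 and raised 8 of that list. Over all genes tested A-485 lowered 16.4%, and TSA lowered 11.3% and raised 10.3%.

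Cdkn1a, the Cdk inhibitor p21 and a target of p53, was at 17.5 and 14.9 in the A-485 controls, 9.38 and 4.59 with A-485, 16.9 and 19.8 in the TSA controls and 59.98 and 52.8 with TSA. The difference was -2.83 ± 0.36 (SE, adjusted p = 1.88e-05). Ddit3, the transcription factor CHOP of the integrated stress response, was at 12.3 and 10.2 in the A-485 controls, 3.79 and 6.06 with A-485, 7.26 and 7.77 in the TSA controls and 18.6 and 29.5 with TSA, with a difference of -2.86 ± 0.44 (SE, adjusted p = 0.000117). Neither gene's groups overlapped, and both genes were named from lists by the size of their difference. Of 22 integrated stress response genes, 5 fell with both inhibitors, 2 rose with both and 1 fell with A-485 and rose with TSA. The shares of all genes tested in these classes were 9.26%, 3.22% and 0.93%. For 24 p53-response genes, A-485 lowered 7 and raised 2, and TSA lowered 3 and raised 6, with 1 opposite. Over all genes tested A-485 lowered 16.4% and raised 9.51%, and TSA lowered 11.3% and raised 10.3%. Btg2, an antiproliferative gene of the p53-response list, was at 13.7 and 14.8 in the TSA controls and 115 and 113 with TSA, while its A-485 effect of -0.86 was under the fold limit.

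By the size of the smaller of their effects, Inka1 and Lmx1b stood out among protein-coding members together with Hba-a2 and Fthl17d. Inka1, an inhibitor of the kinase PAK4, had scaled counts of 3.98 and 3.43 in the A-485 controls, 0.414 and 0.245 with A-485, 4.07 and 5.49 in the TSA controls and 28.9 and 27.3 with TSA, and a difference of -6.04 ± 0.53 (SE, adjusted p = 1.9e-07). Lmx1b, a LIM-homeodomain transcription factor, was at 7.56 and 6.41 in the A-485 controls, 0.207 and 1.47 with A-485, 5.29 and 3.81 in the TSA controls and 27.8 and 35.5 with TSA, with a difference of -5.81 ± 0.63 (SE, adjusted p = 2.43e-06). Fthl17d, a ferritin heavy chain-like gene, was 1.39 and 0.731 in the A-485 controls and under the floor of 3 counts per library with A-485, which makes the controls at least 5.44-fold higher. It rose with TSA from 0.924 and 0.5 to 7.21 and 5.4. The remaining regulators named by the same lists included the mRNA decay factor Zfp36l2 (difference -2.64) and the elongation factor Ell3 (-2.10). The Ell3 difference missed the threshold without replicate 2 of the TSA controls (adjusted p = 0.0596) or replicate 2 of TSA (adjusted p = 0.0563).

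Hba-a2, which encodes alpha globin, is a marker of red blood cells and is named beside the whole erythroid list. It was 1.14 and 1.46 in the A-485 controls, 0 in both A-485 libraries, 0.252 and 0.59 in the TSA controls and 12.3 and 14.4 with TSA, and the A-485 controls were at least 6.67-fold higher than A-485 set at the floor of 3 counts per library. Its near copy Hba-a1 was at 0 in both TSA controls and 3.13 and 2.04 with TSA, at least 19.7-fold higher than the controls set at that floor. Of the 8 erythroid markers, 5 were tested, and 3 or 4 were at 0 in each library (Hbb-bs and Hbb-bt were among those too low to be tested). Their summed FPKM was 3.76 to 4.76 in the A-485 controls, 0.57 to 2.31 with A-485, 1.08 to 1.60 in the TSA controls and 45.9 to 47.2 with TSA. Whether other cells contributed to the globin counts was not tested.

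A-485 raised and TSA lowered only 9 genes: Thumpd3, Fignl1, Rbm41, Zfp866, St7l, Adam1a, Amy1, Gm14698 and Gm10433, all listed here whatever their level. Thumpd3, a tRNA methyltransferase, had scaled counts of 5.87 and 5.79 in the A-485 controls, 23.3 and 24.4 with A-485, 15.7 and 12.9 in the TSA controls and 5.9 and 3.68 with TSA. The A-485 libraries were the highest, where naming had already required no overlap with the controls, and the difference was 3.61 ± 0.40 (SE, adjusted p = 3.68e-06). Fignl1, an ATPase of homologous recombination, was at 12.5 and 12.6 in the A-485 controls, 19.5 and 31.2 with A-485, 24.8 and 19.1 in the TSA controls and 4.96 and 2.72 with TSA, and its difference was 3.53 ± 0.43 (SE, adjusted p = 9.01e-06). The control levels of both genes themselves differed between the experiments, as neither Thumpd3 nor Fignl1 control libraries overlapped. This class was small enough for a single library to decide its size: without replicate 1 of the A-485 controls it held 15 genes and without replicate 1 of TSA 16. With mitochondrial scaling only 1 of the 9 stayed in it.

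**Figure D2:**
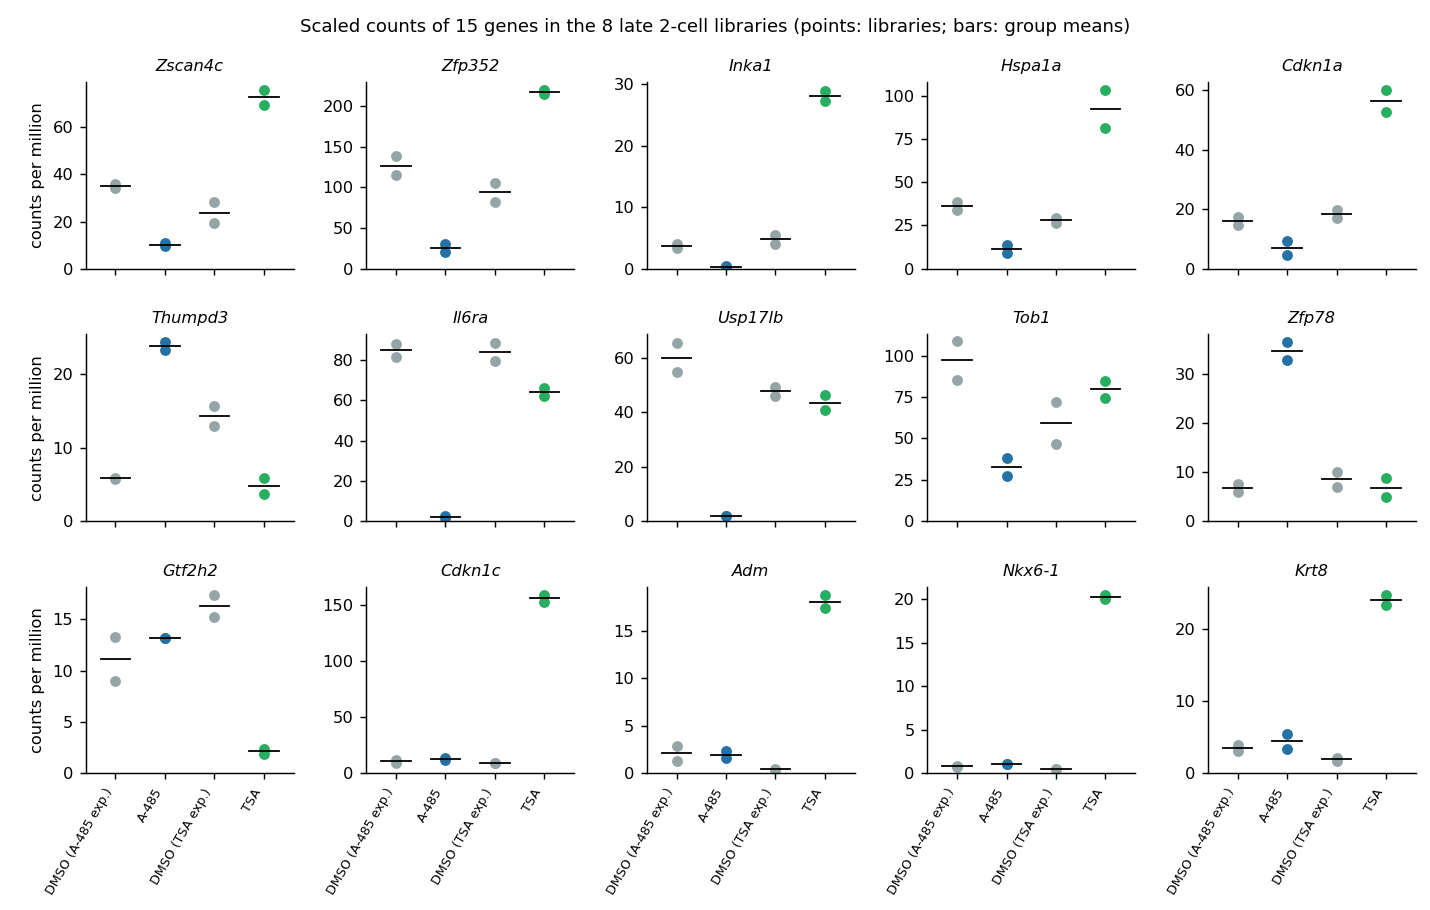
Scaled counts (CPM), from 0 on each vertical axis, are plotted for 15 genes in the 8 late 2-cell libraries. Points are libraries and bars are means of 2, in the order A-485 controls, A-485, TSA controls, TSA; Zscan4c falls to about 10 with A-485 and reaches 75.7 and 69.2 with TSA, whereas Usp17lb falls with A-485 alone and Cdkn1c rises with TSA alone.

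A-485 alone lowered 472 genes, with a median A-485 effect of -2.12 and a median TSA effect of -0.03 on the log2 scale. Of the lists, 2 of 36 mRNA decay factors, 2 of 48 proteasome genes and 3 of 93 splicing genes were among them, beside 1.78% of all genes. The median FPKM was 11.9 and 13.3 in the A-485 controls, 3.64 and 3.28 with A-485, 12 and 11.7 in the TSA controls, and 15.4 and 15.5 with TSA. For 424 of the 472 the 95% interval of the TSA effect lay within -1 and 1. At the limit for a small TSA effect, Zfp518b, a zinc finger gene, lay just inside and Pcna, the replication clamp, just outside, both at -0.50.

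Il6ra, the alpha chain of the interleukin 6 receptor, had scaled counts of 88.1 and 81.6 in the A-485 controls, 2.76 and 1.47 with A-485, 79.4 and 88.4 in the TSA controls and 62.3 and 66.2 with TSA. Its A-485 effect was -5.34 ± 0.22 (SE, adjusted p = 1.63e-12), and the 95% interval of its TSA effect ran from -0.73 to -0.04. Usp17lb, a deubiquitinase of the Usp17-like family, was at 54.7 and 65.5 in the A-485 controls, 1.86 and 1.71 with A-485, 46 and 49.4 in the TSA controls and 46.2 and 40.7 with TSA, with a difference of -4.93 ± 0.27 (SE, adjusted p = 7.61e-10). Ephb3, an ephrin receptor tyrosine kinase, was at 30.2 and 21.4 in the A-485 controls, 1.45 and 1.16 with A-485, 21.5 and 31.6 in the TSA controls and 28.4 and 34.6 with TSA. The A-485 libraries of these 3 genes were below every other library, where naming had already required no overlap with the A-485 controls. The TSA libraries of Il6ra lay below both of their controls by less than the 0.5 limit. Smim4, a small membrane protein gene, was 2.04 and 3.21 in its controls and under the floor of 3 counts with A-485, so the controls were at least 13.4-fold higher.

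Families of the 2-cell stage were divided between the classes. Of 5 Tdpoz genes, which encode proteins with MATH and BTB domains, all fell with A-485, beside 16.4% of all genes tested. Tdpoz3 rose with TSA, and Tdpoz1, Tdpoz4 and Tdpoz5 were lowered by A-485 alone. Tdpoz3 was at 19.95 and 28.6 in the A-485 controls, 3.04 and 5.82 with A-485, 17.4 and 12.2 in the TSA controls and 81.9 and 67.3 with TSA. Tdpoz5 was at 56.7 and 58.5 in the A-485 controls, 5.31 and 2.08 with A-485, 47.5 and 54.7 in the TSA controls and 39.4 and 34.6 with TSA, so that its TSA libraries lay below both TSA controls while its effect of -0.46 ± 0.23 (SE, adjusted p = 0.157) missed the threshold. Of the 5 Usp17-like genes tested, all 5 differences were called below 0, beside 10.8% of all genes tested. Usp17la rose from 15.6 and 14 to 92.5 and 76.2 with TSA, and Usp17lc fell from 184 and 163 to 21.3 and 23.1 with A-485. Members of these families share sequence, and how reads were divided between them is uncertain. The median TSA effect of the Tdpoz genes changed sign with the scaling, from -0.16 with TMM to 0.18 with total counts, while the median differences of the Zscan4, Usp17-like and Tdpoz lists stayed between -3.17 and -4.17 under the 4 scalings.

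Among regulators of cell death, A-485 alone lowered Bid, a pro-apoptotic BH3 protein. Bid was at 6.12 and 5.01 in the A-485 controls, 1.31 and 1.29 with A-485, 9.82 and 8.49 in the TSA controls and 8.56 and 9.35 with TSA, and its difference of -2.06 ± 0.50 (SE, adjusted p = 0.00739) missed the threshold without replicate 2 of the TSA controls (adjusted p = 0.0536). Over the 30 apoptosis regulators tested, A-485 lowered 10 and raised 4, and TSA lowered 7 and raised 1. Over all genes tested these shares were 16.4%, 9.51%, 11.3% and 10.3% in that order.

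Tob1 and Zfp36, which promote the deadenylation and decay of mRNA, were lowered by A-485 alone. Tob1 was at 109 and 85.6 in the A-485 controls, 38.1 and 27 with A-485, 46.7 and 71.8 in the TSA controls and 74.3 and 84.8 with TSA. Zfp36 was at 23.3 and 21.1 in the A-485 controls, 10.4 and 6.06 with A-485, 15.8 and 17 in the TSA controls and 16.4 and 15.2 with TSA, with a difference of -1.38 ± 0.37 (SE, adjusted p = 0.0129). Its A-485 libraries were the lowest of the 8, but the difference was lost without replicate 1 of the A-485 controls (adjusted p = 0.0507) or either TSA control (adjusted p = 0.071 and 0.0519). Kat5, the acetyltransferase Tip60, was at 13.4 and 18.5 in the A-485 controls, 8.9 and 6.61 with A-485, 15.7 and 17.6 in the TSA controls and 22.7 and 19.6 with TSA, and its difference of -1.39 ± 0.36 (SE, adjusted p = 0.0106) was lost without 3 of the libraries (replicate 2 of the A-485 controls, replicate 1 of the TSA controls and replicate 1 of TSA). Of 10 acetyltransferase genes, 7 fell with A-485 and 5 with TSA, beside 16.4% and 11.3% of all genes tested.

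The proteasome ATPase Psmc3 was at 26.6 and 24.4 in the A-485 controls, 5.38 and 10.2 with A-485, 30.6 and 28.6 in the TSA controls and 32.8 and 27.2 with TSA. Psma1, an alpha subunit of its core, had a difference of -1.53 ± 0.33 (SE, adjusted p = 0.00283). Neither was typical of its list, since A-485 lowered 27 and TSA 21 of 48 proteasome genes, beside 16.4% and 11.3% of all genes tested. Differences were called below 0 in 4 of the 48, near the 10.8% of all genes tested. Eef1g, a subunit of translation elongation factor 1, was at 21.1 and 21.4 in the A-485 controls, 5.04 and 8.27 with A-485, 20.7 and 18 in the TSA controls and 28.5 and 23.5 with TSA, and Snrnp25, of the minor spliceosome, had a difference of -3.76 ± 0.71 (SE, adjusted p = 0.000977). Among 93 splicing genes, 62 fell with A-485 and 53 with TSA, beside 16.4% and 11.3% of all genes tested.

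A-485 alone raised 174 genes, with a median A-485 effect of 1.99 and a median TSA effect of 0.05 on the log2 scale. Long noncoding RNAs made up 27.6% of them, against 19.8% of all genes tested and 11.9% of those of at least 1 FPKM. Of the class, 36.8% were under 1 FPKM in both control groups. This share was 48.9% over all genes tested and 25.7% over those of at least 1 FPKM. Zfp78, a KRAB zinc finger gene, was at 7.56 and 5.96 in the A-485 controls, 36.6 and 33 with A-485, 10.1 and 7.04 in the TSA controls and 8.89 and 4.86 with TSA, with a difference of 2.68 ± 0.42 (SE, adjusted p = 0.000176). Dctn5, a dynactin subunit, was at 2.09 and 3.32 in the A-485 controls, 13.5 and 9.74 with A-485, 3.95 and 4.81 in the TSA controls and 5.01 and 2.68 with TSA. Nlrp4c, a gene of the oocyte, was at 9.4 and 9.79 in the A-485 controls, 25.9 and 24.1 with A-485, 12.1 and 10.2 in the TSA controls and 12.6 and 8.9 with TSA, and Mrps35, of the mitochondrial ribosome, was 2.79 and 1.91 in the A-485 controls and 7.93 and 9.19 with A-485. The A-485 libraries were the highest for all 4, though all but Nlrp4c were named under a rule of no overlap with the A-485 controls. Dctn5, Nlrp4c and Mrps35 lost the call under mitochondrial scaling (adjusted p = 0.0666, 0.204 and 0.131). Leaving out a library, Mrps35 lost it without 5 of the 8 in turn (adjusted p from 0.0501 to 0.109), Dctn5 without replicate 2 of the TSA controls (0.0513) or of TSA (0.0543), and Nlrp4c without replicate 1 of the TSA controls (0.057). Over the class, 39 of the 174 were still in it under that scaling, and 157 with DESeq2. The class shrank to 97 genes without replicate 1 of the TSA controls and 111 without replicate 2 of TSA.

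TSA alone lowered 75 genes, with a median TSA effect of -1.83. Gtf2h2, a subunit of the transcription and repair factor TFIIH, was at 13.2 and 9 in the A-485 controls, 13.2 and 13.2 with A-485, 15.2 and 17.4 in the TSA controls and 2.39 and 1.91 with TSA, with a difference of 3.16 ± 0.42 (SE, adjusted p = 2.64e-05). Tmem70, needed for the assembly of mitochondrial ATP synthase, was at 17.5 and 17.8 in the A-485 controls, 25.9 and 18.7 with A-485, 18.8 and 15.6 in the TSA controls and 3.7 and 3.22 with TSA. Timm17a, of the mitochondrial import channel, was at 32.3 and 39.9 in the A-485 controls, 29.3 and 33.3 with A-485, 47.4 and 46.9 in the TSA controls and 8.98 and 8.13 with TSA, and Cops3, of the COP9 signalosome, went from 16.8 and 15.3 to 5.8 and 3.63 with TSA. In each the TSA libraries were the lowest of the 8, where naming had already required no overlap with the TSA controls. The A-485 effect on Tmem70 was 0.34 ± 0.24 (SE, adjusted p = 0.282). On the FPKM scale, Timm17a was 18.8 and 34.7 in the A-485 controls and 4.73 and 6.51 with A-485. Its counts did not show this fall. FPKM divides by an effective length that RSEM estimated in each library, and whether this made the difference was not tested. Of the 75 members, 53 had an interaction of the same sign and at least 1 in size on the FPKM scale. Only 4 stayed in the class under mitochondrial scaling, and it held 49 genes without replicate 1 of the TSA controls.

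TSA alone raised 303 genes, with a median TSA effect of 2.43 and a median A-485 effect of -0.04. Protein-coding were 64.6% of all genes tested and 73.3% of those of at least 1 FPKM, against 92.4% of these 303. Their median FPKM was 2.08 and 1.96 in the A-485 controls, 2.38 and 2.24 with A-485, 1.51 and 1.56 in the TSA controls, and 10.5 and 10.03 with TSA. For 155 of the 303 the 95% interval of the A-485 effect lay within -1 and 1. Under mitochondrial scaling the median A-485 effect of these genes was -0.92 and only 30 stayed in the class, whereas their median TSA effect was 2.24. The statement that A-485 left them near their controls therefore held relative to the bulk of the RNA and not relative to the mitochondrially encoded genes.

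Cdkn1c, the imprinted Cdk inhibitor p57, was at 12.4 and 9.45 in the A-485 controls, 13.9 and 12.2 with A-485, 9.24 and 9.17 in the TSA controls and 159 and 153 with TSA. Its TSA effect was 4.08 ± 0.18 (SE, adjusted p = 1.01e-11), and the 95% interval of its A-485 effect ran from -0.10 to 0.61. Adm, which encodes the peptide hormone adrenomedullin, was at 2.94 and 1.29 in the A-485 controls, 1.66 and 2.33 with A-485, 0.504 and 0.409 in the TSA controls and 17.4 and 18.7 with TSA, and its difference was -5.37 ± 0.66 (SE, adjusted p = 1.05e-05). Krt8, a keratin of simple epithelia, was at 3.18 and 3.94 in the A-485 controls, 3.38 and 5.51 with A-485, 1.76 and 2.13 in the TSA controls and 23.4 and 24.7 with TSA. The TSA libraries were far above the other 6 in these genes, which were named for the size of their difference. Bcam, a laminin-binding adhesion molecule, rose with TSA from 0.546 and 0.318 to 10.8 and 15. Gstk1, a glutathione transferase, rose from 0.294 and 0.136 to 8.28 and 8.81, and as its A-485 controls were 0.498 and 0, the sign of its difference was set by replicate 1 of them: it was -5.23 with and 0.14 without that library (adjusted p = 0.858).

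Developmental transcription factors were named from several lists in this class. Nkx6-1, a homeodomain factor of pancreas and neural tube, was at 0.846 and 0.788 in the A-485 controls, 1.1 and 1.04 with A-485, 0.546 and 0.5 in the TSA controls and 20.4 and 20.1 with TSA, with a difference of -4.87 ± 0.60 (SE, adjusted p = 1.21e-05). Foxj1, the regulator of motile cilia, was 0.294 and 0.182 in the TSA controls and 19.6 and 22.3 with TSA. Its difference lost the call without replicate 2 of the A-485 controls (adjusted p = 0.147). Foxo6, a forkhead factor, was at 1.94 and 1.8 in the A-485 controls, 1.86 and 1.16 with A-485, 0.84 and 0.817 in the TSA controls and 15.9 and 13.4 with TSA. Sox4, an HMG-box factor, was at 9.5 and 3.54 in the A-485 controls, 5.24 and 6.25 with A-485, 16.2 and 16 in the TSA controls and 83.8 and 87.4 with TSA, and Hes1, a Notch target, was at 25.1 and 22.6 in the A-485 controls, 32.5 and 30.7 with A-485, 13 and 10.5 in the TSA controls and 59.6 and 55.3 with TSA. In Hes1 the A-485 libraries were above their controls without passing the fold limit (0.41 ± 0.18 (SE, adjusted p = 0.082)). Of 43 genes of the Lhx, Nkx, Irx, Dlx, Msx and related homeobox families, A-485 raised 17 and lowered none, TSA raised 28 and lowered none, and 14 differences were called below 0 with 1 above. Over all genes tested A-485 raised 9.51% and TSA 10.3%, and differences were called below 0 in 10.8% and above 0 in 2.7%. Of these 43 homeobox genes, 15 rose with both inhibitors and 5 with TSA alone, beside 3.22% and 1.14% of all genes tested. Irx3, an Iroquois factor that rose with both, was at 2.84 and 1.18 in the A-485 controls, 10.7 and 10.9 with A-485, 1.13 and 0.182 in the TSA controls and 47.4 and 37.2 with TSA.

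Of 38 Hox genes tested, 28 reached 1 FPKM, 17 rose with A-485 and 19 with TSA, and none fell. Among all genes tested A-485 raised 9.51% and lowered 16.4%, and TSA raised 10.3% and lowered 11.3%. Differences of the Hox genes were called below 0 in 2 and above 0 in 1, beside 10.8% and 2.7% of all genes tested. Hoxd13 was at 2.04 and 2.7 in the A-485 controls, 33.3 and 22.7 with A-485, 1.81 and 2.32 in the TSA controls and 7.53 and 8.17 with TSA. Its larger response was to A-485, but the difference of 1.63 ± 0.45 (SE, adjusted p = 0.0163) was lost under mitochondrial scaling (adjusted p = 0.205) and without 4 of the 8 libraries in turn. Hoxc10 was at or under the floor in both control groups, at least 14.3-fold higher with A-485 and at least 73.0-fold higher with TSA. Meg3, an imprinted noncoding RNA, likewise rose more with A-485, at 1.49 and 3.04 in the A-485 controls, 49.9 and 40.8 with A-485, 3.44 and 2.63 in the TSA controls and 10.01 and 9.31 with TSA, with a difference of 2.67 ± 0.43 (SE, adjusted p = 0.0002). Pdgfra, a receptor tyrosine kinase that is also a fibroblast marker, was at 0.597 and 0.956 in the A-485 controls, 61.7 and 50.6 with A-485, 2.1 and 1.27 in the TSA controls and 16.6 and 17.6 with TSA. The summed FPKM of the 8 fibroblast markers was 0.18 to 0.75 in the A-485 controls, 14.4 to 16.9 with A-485, 1.20 to 2.15 in the TSA controls and 10.6 to 12.2 with TSA, of which Pdgfra held 13.9 and 15.9 with A-485. Whether other cells contributed was not tested.

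**Figure D3:**
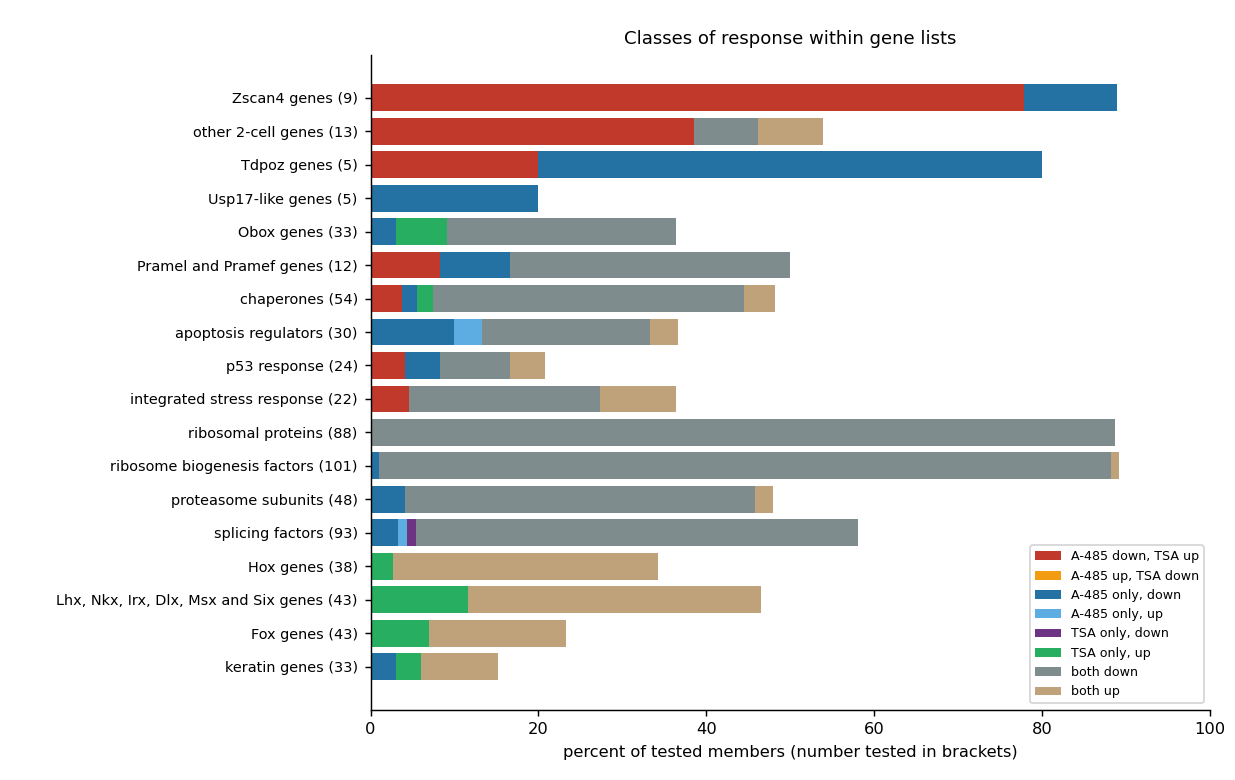
Bars give, for each gene list, the percent of tested members in each class of response, with the number tested in brackets. Zscan4 genes fall mostly in the class lowered by A-485 and raised by TSA, and ribosomal proteins mostly in the class lowered by both. Of 43 genes of the Lhx, Nkx, Irx, Dlx, Msx and related homeobox families, 15 are raised by both and 5 by TSA alone.

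Most genes with 2 called effects moved the same way, and for the larger part of these no difference in size was called. Of the 2458 genes lowered by both inhibitors, the difference was called in 691, and A-485 had the larger fall in 646 of them. Ribosomal protein genes were among them. Of 88 tested, 81 fell with A-485, 80 with TSA and 78 with both, beside 16.4%, 11.3% and 9.26% of all genes tested. In 29 the difference was called below 0 and in 1 above 0, beside 10.8% and 2.7% of all genes tested. Rps15, of the small ribosomal subunit, was at 44.3 and 43.1 in the A-485 controls, 0.897 and 1.41 with A-485, 50.5 and 48.2 in the TSA controls and 9.4 and 6.68 with TSA, with a difference of -2.61 ± 0.35 (SE, adjusted p = 2.59e-05). Rplp1, of the ribosomal stalk, was at 244 and 201 in the A-485 controls, 17.2 and 13.5 with A-485, 268 and 287 in the TSA controls and 87.9 and 85.9 with TSA. Of 101 ribosome biogenesis factors 88 fell with both, beside 9.26% of all genes tested. Among them was Ddx54, a nucleolar RNA helicase, at 215 and 238 in the A-485 controls and 6 and 6.31 with A-485. It was at 255 and 255 in the TSA controls and 56.1 and 59.3 with TSA. The median difference of the ribosomal protein genes was -0.71, and between -0.58 and -1.41 under the other scalings. Slc34a2, a phosphate transporter, was at 1032 and 1082 in the A-485 controls, 13.9 and 22 with A-485, 1108 and 1136 in the TSA controls and 345 and 295 with TSA. In these genes the A-485 libraries were the lowest and the TSA libraries lay between them and the controls. All were named from lists by the size of their difference, so this order is a description.

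Of the 855 genes raised by both, 135 differences were called, 97 of them with the larger rise under TSA and 38 under A-485. Atf3, a stress-induced transcription factor, was at 1.14 and 2.14 in the A-485 controls, 4.35 and 5.45 with A-485, 0.378 and 1.14 in the TSA controls and 32.7 and 33.5 with TSA, with a difference of -3.87 ± 0.59 (SE, adjusted p = 0.000113). Sox8 rose from 5.16 and 5.31 to 82.2 and 77.8 with TSA and from 5.42 and 4.95 to 14.6 and 11.3 with A-485. A called difference fell in none of these 8 classes for 1480 genes. Gata2, a zinc finger factor of blood and trophoblast, was such a gene, at 10.9 and 5.29 in the A-485 controls, 16.8 and 15.3 with A-485, 9.61 and 10.5 in the TSA controls and 266 and 275 with TSA, as its A-485 effect of 0.98 was just under the fold limit.

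The genes that encode the inhibitors' targets responded in part themselves. Ep300, which encodes p300, fell with both inhibitors, at 1094 and 1087 in the A-485 controls, 273 and 267 with A-485, 1142 and 1078 in the TSA controls and 252 and 247 with TSA, and its difference was 0.14 ± 0.11 (SE, adjusted p = 0.448). Crebbp, which encodes CBP, was at 1079.6 and 1098 in the A-485 controls, 1565 and 1422 with A-485, 1024 and 981 in the TSA controls and 1009 and 966 with TSA, and its difference of 0.48 ± 0.10 (SE, adjusted p = 0.00273) was under the fold limit. Both differences changed sign under mitochondrial scaling, to -0.55 (adjusted p = 0.00655) and -0.22 (adjusted p = 0.331). Hdac1, a class I deacetylase, was at 179.8 and 186 in the A-485 controls, 18.7 and 19.5 with A-485, 171 and 209 in the TSA controls and 83.6 and 94.9 with TSA, with a difference of -2.17 ± 0.18 (SE, adjusted p = 9.23e-08). Its paralogue Hdac2 was at 92 and 78.5 in the A-485 controls, 52 and 55.5 with A-485, 75.9 and 71.4 in the TSA controls and 114 and 105 with TSA, with effects of opposite sign, -0.67 and 0.57, that were under the fold limit. Hdac6, the tubulin deacetylase, fell with A-485 from 58.4 and 64 to 7.87 and 5.14, and its TSA effect was -0.53 ± 0.18 (SE, adjusted p = 0.0297). Of 10 deacetylase genes, A-485 lowered 4 and raised 1, TSA lowered 2 and raised 3, and 5 differences were called below 0. Over all genes tested these shares were 16.4%, 9.51%, 11.3%, 10.3% and 10.8% in that order.

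Libraries that had no part in choosing the classes gave a second view of the members. At the early 2-cell stage, 4 libraries compared embryos under A-485 with DMSO, and A-485 lowered 1649 of 20872 genes (7.9%) and raised 84 (0.402%). Between the zygote and early 2-cell stages in DMSO, 3002 of 20106 genes fell (14.9%) and 2257 rose (11.2%). These comparisons share the early 2-cell DMSO libraries and are given side by side.

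Of the 247 genes with opposite responses, 246 were tested at the early 2-cell stage. A-485 lowered 163 of them (66.3%) and raised none, with a median of -3.31. From the zygote to the early 2-cell stage 162 of 245 rose (66.1%). Among all genes tested at both stages, 8.09% fell and 11.5% rose, and among those of at least 1 FPKM 9.96% fell and 13.9% rose. The study's list of early 2-cell minor ZGA genes, drawn from embryos under a transcription inhibitor against DMSO at that stage, held 85 of the 247 (34.4%) and 2.10% of all genes tested. As that list may share the early 2-cell control libraries, it is not independent of the rise. The class median was 0.36 and 0.35 FPKM in the DMSO zygotes, 4.50 and 4.91 in the early 2-cell controls, and 0.39 and 0.45 in early 2-cell embryos under A-485. At that earlier stage the class was thus near its zygote level with A-485.

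Zfp352 fell by an A-485 effect of -6.46 ± 0.13 (SE, adjusted p = 6.06e-11) at the early 2-cell stage, after a rise in DMSO of 7.01 ± 0.14 (SE, adjusted p = 3.13e-12). Hspa1a had an early A-485 effect of -3.02 ± 0.24 (SE, adjusted p = 2.99e-06) and Tcstv1, a 2-cell gene linked to telomeres, -1.77 ± 0.17 (SE, adjusted p = 1.3e-05). Not every member shared this. Ell3 had an early effect of 0.09 ± 0.37 (SE, adjusted p = 0.929), and Zfp36l2 one of -0.46 ± 0.17 (SE, adjusted p = 0.111).

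Fewer genes of the other classes fell early. For the 472 genes lowered by A-485 alone the share was 37.6% (175 of 466), with 38.9% rising from the zygote (182 of 468). Within this class Il6ra and Tob1 had early A-485 effects of -4.69 ± 0.32 (SE, adjusted p = 6.75e-07) and -2.53 ± 0.18 (SE, adjusted p = 8.34e-07), whereas the proteasome gene Psma1 had -0.79 ± 0.30 (SE, adjusted p = 0.132). For the 303 raised by TSA alone the share was 18.5% (55 of 298), among them Hes1 (-3.01 ± 0.29 (SE, adjusted p = 1.5e-05)) and Krt8 (-2.87 ± 0.52 (SE, adjusted p = 0.0026)), although A-485 left both near their controls at the late 2-cell stage. None of 169 genes raised by A-485 alone fell early and 6 rose, Zfp78 among them (1.72 ± 0.33 (SE, adjusted p = 0.00353)). Of the 75 lowered by TSA alone, 2 fell early with A-485, and 23 of 74 (31.1%) fell from the zygote to the early 2-cell stage in DMSO. Gtf2h2 was one of these, with a change of -2.90 ± 0.25 (SE, adjusted p = 4.99e-07). Of the genes lowered by both inhibitors 27.1% fell early, and of those raised by both 4.93%.

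**Figure D4:**
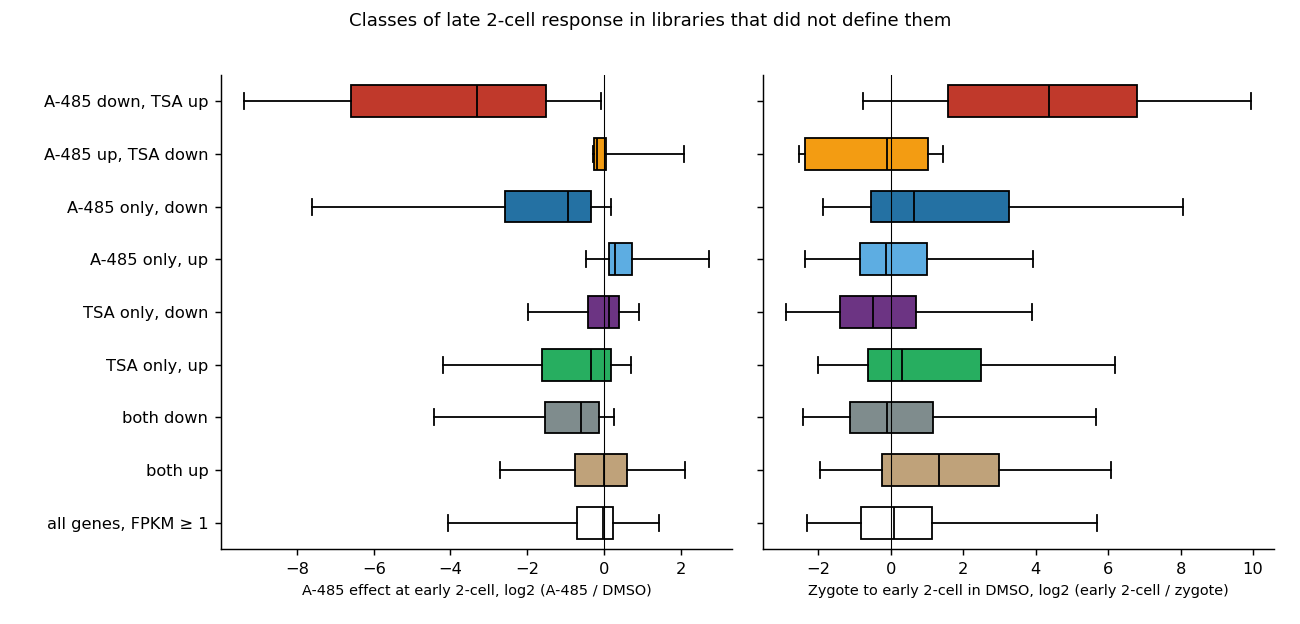
Boxes show, for each class of late 2-cell response and for all tested genes of at least 1 FPKM, the A-485 effect at the early 2-cell stage (left) and the change from zygote to early 2-cell in DMSO (right), both on the log2 scale. Boxes span the quartiles, lines inside them are medians and whiskers run from the 5th to the 95th percentile; the genes lowered by A-485 and raised by TSA have medians of -3.31 and 4.37.

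**Figure D5:**
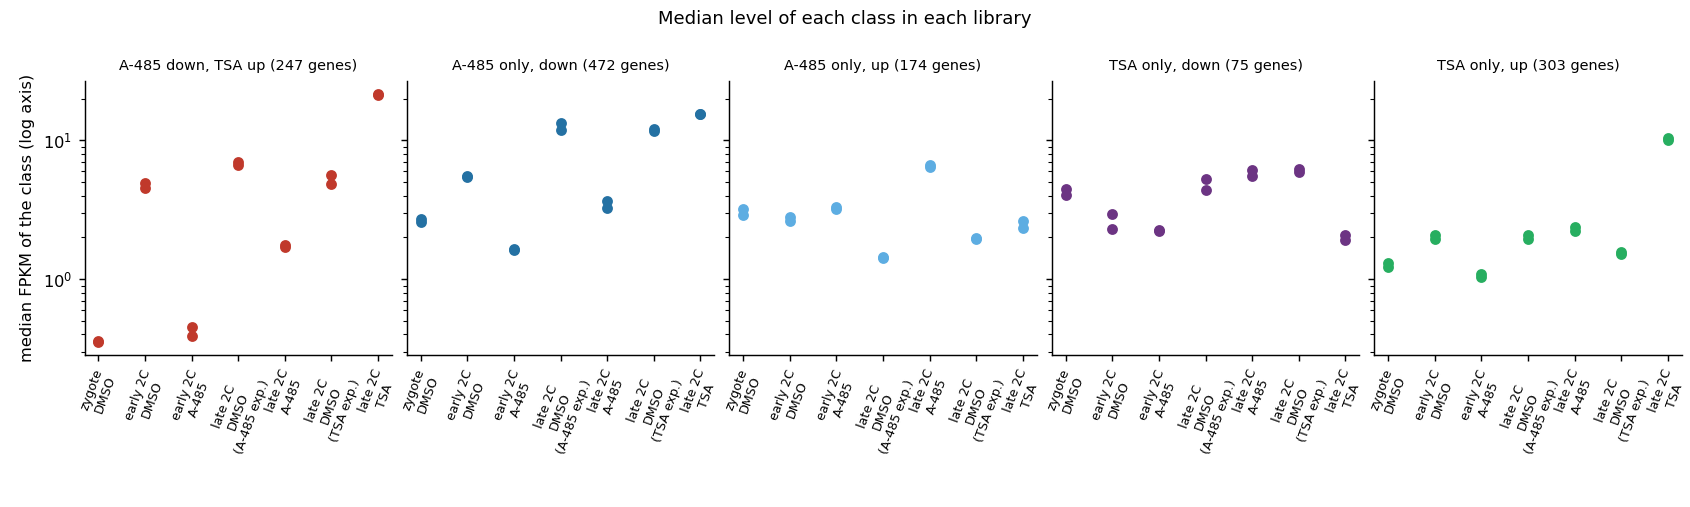
Points give the median FPKM of each class in each library, ordered by stage and treatment, on a log axis. The genes with opposite responses rise from 0.36 and 0.35 in zygotes to 4.50 and 4.91 in early 2-cell controls, and are highest with TSA at the late 2-cell stage.

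Of 246 members with opposite responses and a position, 89 had another member within 500 kb, as did 204 of 468 genes lowered by A-485 alone; this count grows with the size of a class. Of the 247, 49 lay in 6 runs of neighbouring members. The largest run, chr12:87494721-88324026 in GRCm38, held 15 members among 45 genes tested, and chromosome 12 held 10.6% of the class against 3.82% of all genes tested. Another, chr7:10900740-11614112, held 7 members including Zscan4b, Zscan4c, Zscan4e and Zscan4f. A run on chromosome 3 (chr3:93826020-94266784) held 9 members with Tdpoz3, and an overlapping run held 9 genes lowered by A-485 alone with Tdpoz1, Tdpoz4 and Tdpoz5. As neighbouring copies of a family may share reads, the counts above were repeated on the 198 genes outside them: 58.4% fell early with A-485 and 58.2% rose from the zygote.

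Promoter letters were read for 246 of the 247 genes with opposite responses, in 300 bases from 250 before to 50 after the start. Their median ratio of observed to expected CpG was 0.32, or 0.41 outside the runs, against 0.51 over all 25890 promoters of tested genes. It was 0.69 for genes lowered by A-485 alone, 0.65 for those raised by TSA alone and 0.79 for those lowered by both. For tested genes of at least 1 FPKM, a level that members of a class had to reach, it was 0.64. The CCAAT letters, on either strand, occurred in 56.9% of the promoters of the opposite class (140 of 246), in 56.3% outside the runs, and in 38.5% of all promoters. They occurred in 53% for genes lowered by A-485 alone (248 of 468), as in Usp17lb above, and in 44.9% for those raised by TSA alone. The share was 40.4% for tested genes of at least 1 FPKM. The letters TATAAA occurred in 19.9% of the opposite class, 14.7% outside its runs, 11.9% of all promoters and 10.6% for tested genes of at least 1 FPKM. GGGCGG was found in 36.2% of that class but 44.7% of its members outside the runs, and in 62.9% for genes raised by TSA alone. It was found in 40.4% of all promoters and 48.4% for tested genes of at least 1 FPKM. Matches of different motifs may share bases, and as base composition differed between the classes these shares are descriptions.

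Open chromatin was available as 1 list of peaks per stage and treatment. The early 2-cell lists held 27693 peaks in DMSO and 13712 with A-485. A peak lay within 1000 bp of the start of 35.6% of the genes with opposite responses in DMSO and 30.4% with A-485, or 40.4% and 37.4% outside the runs. The shares were 39.3% and 48.6% of tested genes of at least 1 FPKM, and 29.8% and 37.5% of all genes tested. For genes lowered by A-485 alone a peak was listed at 300 and 283 of the 472. The share was higher with A-485 for genes raised by TSA alone, at 35.6% and 60.1%, raised by A-485 alone, at 31.6% and 54.6%, and raised by both, at 20.8% and 55.4%. It was higher with A-485 also for genes lowered by TSA alone, at 53.3% and 62.7%, and for the 9 genes raised by A-485 and lowered by TSA, at 6 and 7 genes, as it was over all genes. With 1 list per condition there is no replicate spread, and these are shares of genes with a listed peak, not heights.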

How the data were processed

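Total RNA of mouse embryos was sequenced after rRNA depletion with a stranded SMART-Seq kit, as paired-end reads of 75 bp. The authors trimmed reads with Trimmomatic 0.39, mapped them to GRCm38 with STAR 2.7.8a and quantified genes with RSEM 1.3.1; whether counting used strand is not given in the sources used here. The deposited expected counts are not normalized, and the deposited FPKM values are RSEM's, per kilobase of effective length estimated in each library. Per sample, the 8 late 2-cell libraries held 13206163 to 26531532 expected counts. The authors' ATAC-seq peaks, deposited with a fold enrichment ratio over background as 1 list per stage and treatment over both replicates, were used only for their positions.

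Expected counts were rounded and tested in edgeR 4.0.16 under R 4.3.3 (quasi-likelihood F) in 1 model of 4 groups over 8 libraries, with TMM scaling, genes of at least 10 counts in sum, and Benjamini-Hochberg adjustment over all genes. The early 2-cell and zygote comparisons were fitted on their own 4 libraries. An SE is the effect divided by the root of F. Fold changes use fitted means, and groups under 3 counts per library are given as bounds covering counting error only. The fit was tested on simulated counts. Replicate numbers did not pair the samples, as deviations of same-numbered libraries correlated between -0.02 and 0.04. Replicate libraries differed by more than sampling noise (chi-square per degree of freedom 10.3 to 18).

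Members, classes, and gene lists were chosen with earlier results of these data known, so no p-value over a list is given. For each class up to 4 protein-coding genes were named, ranked by the size of the difference of the effects. For opposite responses the smaller of both effects was used instead. These genes needed a mean FPKM of at least 10 in a group, no overlap with controls and a symbol that is not a model or clone name. Up to 4 members of each list were named by the size of the difference at 5 FPKM or more, with Ep300, Crebbp and deacetylase genes. Other names (H2-T22, Vasn, Zfp518b, Pcna as edges, the 9 genes of the smallest class) were added after their values were seen. Alternatives were DESeq2 1.42.0, other scalings and filters, a replicate block, and leaving out each library. The FPKM-scale check and the alternatives of the early 2-cell and zygote fits were chosen after seeing the data. Promoters were cut from GRCm38 at GENCODE M21 gene starts for 25890 of 26554 genes. Repeats, CUT&RUN samples and inhibitor effects in zygotes were not used here. Some genes and sequences are not reported here.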

Additional observations from a re-analysis of the deposited data

How the results depend on the processing

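Of 377 alternative values of counts and shares, 332 stayed close to the main value (counts within 1.5 times it, peak shares within its 95% binomial interval) and 45 moved. Of 2825 alternative values for differences of single named genes, 102 lost the call, 87 gained it and 3 changed sign: Ep300 (-0.55) and Crebbp (-0.22) under mitochondrial scaling, and Gstk1 (0.14) without replicate 1 of the A-485 controls, which ranged from -6.28 to 0.14 over the 8 libraries left out. Mitochondrial scaling gave 7267 genes lower and 1366 higher with A-485, differences of 5238 below and 326 above 0, classes of 3 (A-485 up and TSA down), 1091 and 51 (A-485 alone, down and up) and 24 (TSA alone, down), and 8196 falling and 1270 rising genes from zygote to early 2-cell. It shifted the median difference by -0.69, total counts by -0.06 and DESeq2 by 0.13. DESeq2 gave 14 genes for A-485 up and TSA down and 276 for A-485 alone up. Without a count filter 357 genes differed between the controls and 137 rose early with A-485. Among named protein-coding genes the opposite class held 145 (69 lower early with A-485, 66 rising from the zygote), and 32 differed between the controls. Without the FPKM cutoff A-485 up and TSA down held 28, and 161 rose early. Without the fold cutoff the difference was above 0 in 1145, classes held 412, 53, 382 (A-485 alone up) and 145 (TSA alone down), 371 differed between the controls, 293 rose early, and 4571 fell and 3780 rose from the zygote. With a limit of 1 for the other effect the 4 classes of a single inhibitor held 921, 274, 129 and 536; requiring its 95% interval within -1 and 1 left 87, 49 and 155 in all but the first. Within 2500 bp, 70.3% of genes lowered by A-485 alone had a DMSO peak at early 2-cell. Leaving out a library, differences above 0 ranged from 440 to 736, the opposite class from 188 to 267, A-485 up and TSA down from 6 to 16, A-485 alone up from 97 to 179, TSA alone down from 49 to 83, and control differences from 100 to 294. The lowest values of differences above 0, A-485 alone up and TSA alone down came without replicate 1 of the TSA controls, and control differences fell to 0.463% of the genes tested without replicate 1 of the A-485 controls and to 100 genes without replicate 2 of the TSA controls. A replicate block over both experiments gave 3056 differences below and 802 above 0, and one within each experiment 3044 and 781, with 266 and 274 genes in the opposite class; the block moved no count by more than 1.5 times. Groups of 2 libraries limit the precision of each effect, and the causes of these changes were not tested.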

Other observations

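Other gene groups showed both shared and unshared responses at the late 2-cell stage. Of 33 Obox genes tested, homeobox genes of the oocyte and early embryo, A-485 lowered 11 and TSA lowered 9 and raised 9, and 13 differences were called below 0. Over all genes tested these shares were 16.4%, 11.3%, 10.3% and 10.8% in that order. Obox4-ps35 was at 40.3 and 36.1 scaled counts in the A-485 controls and 2.35 and 2.20 with A-485, with a TSA effect of -0.02 ± 0.17 (SE, adjusted p = 0.98). Obox4-ps28 rose instead with TSA, from 5.16 and 3.13 to 49.5 and 38.0. These copies share sequence, so how reads were divided between them is uncertain. Of 37 imprinted genes A-485 lowered 5 and raised 12, and TSA lowered 6 and raised 13, with 5 differences below and 6 above 0. Over all genes tested these shares were 16.4%, 9.51%, 11.3%, 10.3%, 10.8% and 2.7% in that order. The median A-485 effect of the imprinted list turned from 0.79 to -0.10 under mitochondrial scaling. Of 51 cyclin and Cdk regulator genes 12 differences were called below and 2 above 0, beside 10.8% and 2.7% of all genes tested. For 22 genes of the integrated stress response 9 were called below and none above. Trib3, a pseudokinase of that response, was at 47.2 and 50.3 in the A-485 controls, 2.90 and 0.857 with A-485, 41.5 and 43.0 in the TSA controls and 11.6 and 9.99 with TSA, so it fell with both where Ddit3 had opposite responses.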
